A study of Sorghum bicolor with 12 samples.

Results

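NAC transcription factors were represented by 114 sorghum loci. They are the loci that the study's list of transcription factors assigns to the NAC family, among the 1557 loci of that list used here. The rule itself uses no measured value. All 114 had a probe of their own on the array, which held probes for 34286 annotated loci and 41977 designed probes in all. The loci lay on all 10 chromosomes, with 18 on chromosome 3 and 7 on chromosome 8. Of the annotations, 29 read only "similar to Putative uncharacterized protein" and 16 only "Predicted protein".

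NAC proteins are transcription factors found in plants and are named after the petunia gene NAM and the Arabidopsis genes ATAF and CUC. They bind DNA through a conserved domain at the amino end, while the rest of the protein is variable and often activates transcription. In Arabidopsis and in cereals, members are known for separating organs from the shoot tip, for building secondary walls of vessels and fibres, for leaf senescence, and for responses to drought, salt and abscisic acid.

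Transcripts were measured in entire seedlings, 2 weeks old, of the sweet sorghum cultivar Keller and the grain sorghum cultivar BTx623, which were placed in 5% sucrose solution for 0, 2 or 6 h. Each of the 6 groups of cultivar and time had 2 single-colour arrays, called repeats 1 and 2, and the 12 arrays lay on 3 slides. No seedlings kept without sucrose for 2 h or 6 h were among the samples, so an effect of sucrose and an effect of the hour of sampling cannot be told apart. Shoots and roots were in 1 sample, and fewer cells of a type and less RNA per cell cannot be told apart in such RNA. Of the loci annotated as chlorophyll a-b binding protein 2 of 3, and of those annotated as nitrate transporters 6 of 9, were well above background on all 12 arrays. The nitrate transporters include low affinity types, and whether these transcripts came from leaf or root was not tested.

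Levels are the log2 processed signal of a probe minus the log2 of its array's 75th percentile, so 0 is a signal equal to that percentile. The percentile was between 323 and 400 on slide 1 and between 549 and 677 on the other slides. Between 28319 and 34609 probes per array were well above background, with the most on repeat 2 of Keller at 0 h. Levels of different probes were not compared. A locus was called where limma's moderated test gave a Benjamini-Hochberg adjusted p under 0.05 over all 31947 probes tested and the change was at least 2-fold. With 2 arrays in a group the number of arrays limits the precision, and all 12 arrays share 1 estimate of the spread.

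Of the 114 NAC loci, 68 were well above background on all 12 arrays, 33 on some arrays and 13 on no array. Sb01g022100, Sb02g024530, Sb02g032670, Sb03g037830 and Sb05g002390 were among these 13. The test covered 87 NAC loci, those with a probe detected above background on every array of some group, and left out 27. This is 76.3% of the family, against 76.1% of all designed probes. The untested loci included 14 that were above background on at least 1 array. Detection was limited to Keller arrays for 10 loci and to BTx623 arrays for 2, most of them on 1 or 2 arrays, and repeat 2 of Keller at 0 h was the array with the most probes above background. Of the 5 loci annotated as NAM-related protein 1, 1 was tested, and neither nac5 (Sb10g020860) nor nac6 (Sb10g020850), which lie side by side on chromosome 10, was tested.

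At 6 h against 0 h, averaged over the cultivars, 10 of the 87 tested NAC loci were called, 3 higher and 7 lower. Over all probes 9.12% were called, 3.67% higher and 5.45% lower. The share of NAC loci called, 11.5%, was near this background. It counts Sb02g043210, which entered the test only through groups sampled after 0 h, so that its call is no support for a rise. The median change of the NAC loci was -0.18 on the log2 scale, against 0.02 over all probes, and 51 of the 87 lay below 0. Above 0 were 41.4% of the NAC loci and 51.3% of all probes. At 2 h against 0 h, 6 NAC loci were called, 1 higher and 5 lower, which is 6.9% of those tested against 2.44% of all probes (0.97% higher and 1.46% lower). With the replicate number as a block, which takes up differences between the repeats, the shares at 2 h were 8.05% of the NAC loci and 5.64% of all probes, while a block for slide gave 9.2% of the NAC loci and 5.49% of all probes, so that the shares lay closer together. The median change at 2 h was -0.13, against -0.02 over all probes. In the unscaled signals, where the median of all probes moved to 0.20 at 2 h and to 0.13 at 6 h, the NAC median was 0.09 at 2 h and -0.07 at 6 h. Under all 4 scalings tried it lay below the median of all probes at both times. Most members changed little, and 69 of 87 at 6 h and 77 of 87 at 2 h were within 2-fold of their 0 h level. Of the 10 loci called at 6 h, normexp background correction, which raises low signals by an offset, ended the call of Sb01g003710, Sb01g006410, Sb02g043210, Sb02g043270 and Sb06g034010. In the unscaled signals Sb03g040720, Sb09g021780 and Sb03g035820 were the 3 still called.

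**Figure D1:**
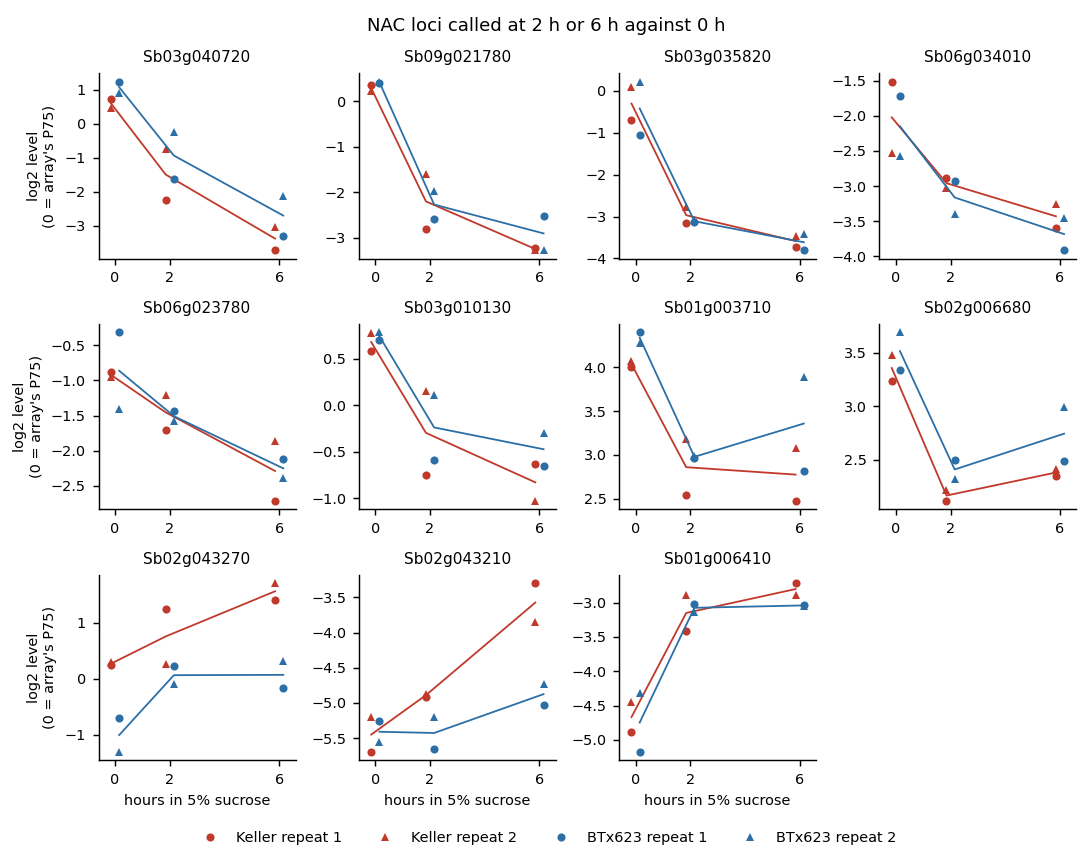
Log2 level (0 is the array's 75th percentile, P75) of the 11 NAC loci called at 2 h or 6 h against 0 h, by hours in 5% sucrose, with each array as a point (circle for repeat 1, triangle for repeat 2) and lines through the means of Keller (red) and BTx623 (blue). Sb03g040720, Sb09g021780 and Sb03g035820 fell the most, and Sb01g006410 rose in both cultivars.

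The strongest changes were falls of 3 loci. Sb03g040720 (chromosome 3, 68252042 to 68253731), annotated as similar to a NAC transcription factor-like protein, had the lowest change of the family at 6 h. In Keller its level was 0.75 and 0.46 at 0 h, -2.25 and -0.74 at 2 h, and -3.73 and -3.04 at 6 h. In BTx623 it was 1.24 and 0.92 at 0 h, -1.63 and -0.24 at 2 h, and -3.30 and -2.12 at 6 h. All 4 arrays at 6 h lay below all 4 at 2 h except that repeat 1 of Keller at 2 h was lower than repeat 2 of BTx623 at 6 h. The change was -2.06 ± 0.44 (log2, SE; 4 arrays against 4) at 2 h, with adjusted p = 0.0447, and -3.89 ± 0.44 at 6 h, with adjusted p = 0.00147, which is 14.8-fold lower at 6 h. At 2 h the call was lost in 11 of 12 fits that left out an array, with an adjusted p of up to 0.165 without BTx623 2 h replicate 1, and was kept without Keller 2 h replicate 2. At 6 h it was kept in all 12.

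Sb09g021780 (chromosome 9, 51310889 to 51311993), with no informative annotation, is listed as the segmental duplicate of Sb03g040720 and fell with it. Its level in Keller was 0.36 and 0.21 at 0 h, -2.81 and -1.60 at 2 h, and -3.22 and -3.27 at 6 h. The BTx623 arrays gave 0.41 and 0.43 at 0 h, -2.58 and -1.96 at 2 h, and -2.53 and -3.28 at 6 h. Its 4 arrays at 0 h lay close together, and every later array was far below them. The change was -2.59 ± 0.30 at 2 h (adjusted p = 0.00528) and -3.43 ± 0.30 at 6 h (adjusted p = 0.000565, the smallest of the family). It was called at both times in each of the 12 fits that left out an array. The probe sequences were not used here, so whether a probe of this pair also binds the transcript of the other was not tested.

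Sb03g035820 (chromosome 3, 63830400 to 63831254) was the other strongly falling member. The Keller arrays gave -0.70 and 0.09 at 0 h, -3.16 and -2.78 at 2 h, and -3.71 and -3.45 at 6 h. BTx623 seedlings had -1.06 and 0.22 at 0 h, -3.14 and -3.09 at 2 h, and -3.81 and -3.42 at 6 h. Most of the fall was present at 2 h, when the change was -2.67 ± 0.31 (adjusted p = 0.0056), against -3.23 ± 0.31 at 6 h (adjusted p = 0.000822). From 2 h to 6 h it changed by -0.56 ± 0.31 (adjusted p = 0.439), while Sb03g040720 changed by -1.83 ± 0.44 (adjusted p = 0.0838), and neither passed. These tests had no block for the repeats. Both loci were lower at 6 h than at 2 h in each repeat of each cultivar. In this comparison of 6 h with 2 h, added after the data were seen, limma called 0 of 87 NAC loci and 1.19% of all probes (0.379% higher and 0.811% lower), and 9 NAC loci had an unadjusted p under 0.05. On slide 1, which held Keller at both times, the changes at 6 h were -4.48 for Sb03g040720, -3.58 for Sb09g021780 and -3.01 for Sb03g035820. On slide 3, which held BTx623 at both times, they were -3.03, -3.70 and -3.64 in the same order.

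These falls were also called within each cultivar at 6 h. In Keller 5 NAC loci were called at 6 h, 2 higher and 3 lower (5.75% of those tested, against 2.2% of all probes, 0.657% higher and 1.54% lower), and in BTx623 4 were called, 1 higher and 3 lower (4.6%, against 2.97% of all probes, 0.992% higher and 1.98% lower). The 2 higher in Keller include Sb02g043210, which entered the test only through groups sampled after 0 h, so that its call is no support for a rise. Sb03g040720 changed by -3.99 ± 0.62 in Keller and by -3.79 ± 0.62 in BTx623. Sb09g021780 changed by -3.53 ± 0.42 in Keller and by -3.32 ± 0.42 in BTx623. Sb03g035820 changed by -3.28 ± 0.44 in Keller and by -3.19 ± 0.44 in BTx623. The adjusted p-values ran from 0.00756 to 0.018 in Keller and from 0.00972 to 0.0202 in BTx623. Without Keller 0 h replicate 1, Keller 6 h replicate 1 or Keller 6 h replicate 2, 0 loci were called in Keller, and 1 without Keller 0 h replicate 2. In BTx623, 0 were called without BTx623 6 h replicate 2, 1 without BTx623 6 h replicate 1, and 2 without either BTx623 0 h array. Over all probes fewer were called in these fits as well. When limma was fitted on the arrays compared alone, 0 NAC loci and 0 of all probes were called in either cultivar. In those fits 16 NAC loci in Keller and 10 in BTx623 had an unadjusted p under 0.05, and the share over all probes was not counted. With the replicate block, 9 were called in Keller (10.3%, against 7.67% of all probes) and 6 in BTx623 (6.9%, against 9.25% of all probes). The additions in Keller were Sb03g010130 (adjusted p = 0.0188), Sb05g005450 (0.0466), Sb06g028800 (0.0227) and Sb01g003710 (0.0344), and those in BTx623 were Sb03g010130 (0.0353) and Sb06g034010 (0.0399).

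At 2 h within a cultivar, limma called 0 NAC loci in Keller (0.16% of all probes, 0.0751% higher and 0.0845% lower) and 0 in BTx623 (0.182% of all probes, 0.0657% higher and 0.116% lower). At an unadjusted p under 0.05 there were 9 in Keller and 13 in BTx623. With the replicate block, 3 were called in Keller (3.45%, against 1.66% of all probes) and 4 in BTx623 (4.6%, against 2.39% of all probes). The 3 in Keller were Sb03g035820 (-2.66, adjusted p = 0.00827), Sb09g021780 (-2.49, adjusted p = 0.0287) and Sb02g006680 (-1.19, adjusted p = 0.0258). In BTx623 the same 3 loci (adjusted p of 0.00703, 0.0201 and 0.0288) and Sb01g006410 (0.0368) were called.

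A difference between the cultivars in their response was not detectable for any NAC locus with 2 arrays in a group. For the change at 6 h in Keller minus that in BTx623, limma called 0 of 87 NAC loci and 0 (0%) of all probes, and 1 NAC locus had an unadjusted p under 0.05. For the change at 2 h it also called 0 NAC loci and 0 (0%) of all probes, with 2 at an unadjusted p under 0.05. The middle part of the differences at 6 h lay between -0.18 and 0.33 (quartiles), and 83 of 87 were within 2-fold. The largest difference among the called loci was that of Sb02g043210, at 1.34 ± 0.52.

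**Figure D2:**
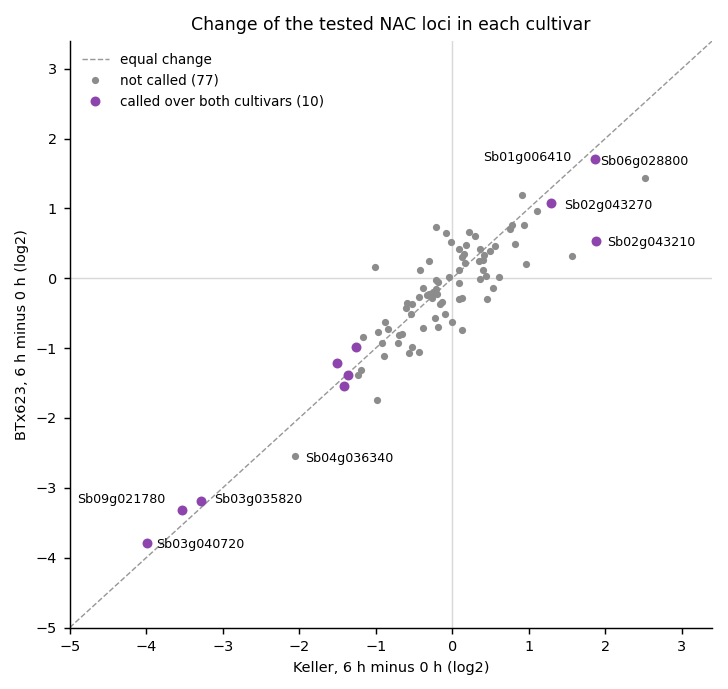
Log2 change at 6 h against 0 h of each of the 87 tested NAC loci in Keller (horizontal) and in BTx623 (vertical), with the 10 loci called over both cultivars in purple, the other 77 in grey and equal change as the dashed line. The 3 loci with the strongest fall lie close to the line, and Sb02g043210 lies below it, with 1.88 in Keller and 0.54 in BTx623.

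From a list of members named for stress in other cereals, with GRAB1 and segmental partners, Sb01g003710 and Sb02g006680 were called lower at 2 h. The first was also called at 6 h, and only the first carries a stress name. The list held 8 loci, the members annotated as Stress-induced NAC1, NAC23, NAC 68, NAC 71, GRAB1 or salicylic acid-induced protein 19 and their segmental partners, and 7 of them were tested. At 2 h 2 of the 7 were called, both lower, where 2.44% of all probes were called, and the median change was -0.58. At 6 h 1 of the 7 was called, lower, a share near the 9.12% of all probes, and the median was -0.87.

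Sb01g003710, similar to Stress-induced transcription factor NAC1, a drought regulator in rice, was among the called. Keller seedlings had levels of 4.00 and 4.07 at 0 h, 2.54 and 3.18 at 2 h, and 2.47 and 3.08 at 6 h. In BTx623 it was 4.40 and 4.28 at 0 h, 2.97 and 2.99 at 2 h, and 2.82 and 3.89 at 6 h. Every array at 2 h and at 6 h was below every array at 0 h, and repeat 2 of BTx623 at 6 h was the nearest to them. The change was -1.27 ± 0.27 at 2 h (adjusted p = 0.0424) and -1.12 ± 0.27 at 6 h (adjusted p = 0.0264). These calls were close to the thresholds: leaving out an array ended the call at 2 h in 10 of 12 fits, with an adjusted p of up to 0.159 without Keller 2 h replicate 1, and the call at 6 h in 6 of 12, with up to 0.0912 without Keller 6 h replicate 1.

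Sb02g006680, its segmental partner, is annotated as similar to GRAB1, a wheat protein known for binding a geminivirus replication protein. Its level in Keller was 3.24 and 3.48 at 0 h, 2.12 and 2.22 at 2 h, and 2.35 and 2.41 at 6 h. The BTx623 arrays gave 3.34 and 3.69 at 0 h, 2.50 and 2.33 at 2 h, and 2.49 and 2.996 at 6 h. Every later array was below every array at 0 h. The change was -1.15 ± 0.17 at 2 h (adjusted p = 0.0132), and the call was lost without Keller 2 h replicate 1 (adjusted p = 0.0688) and without BTx623 2 h replicate 1. At 6 h it was -0.87 ± 0.17 (adjusted p = 0.0124), which passed the test but was under 2-fold. Sb05g005450, similar to NAC domain-containing protein 71, had 3.09 and 3.01 at 0 h, 1.93 and 2.42 at 2 h and 1.65 and 2.13 at 6 h in Keller. In BTx623 it had 3.54 and 3.07 at 0 h, 2.18 and 2.17 at 2 h, and 2.06 and 2.88 at 6 h. Its change at 6 h was -0.999 ± 0.23 (adjusted p = 0.0247) and fell just short of 2-fold. At 2 h it did not pass (adjusted p = 0.0576) unless the replicate number was a block (adjusted p = 0.0223).

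Another pair of this list moved in opposite ways in the repeats. Sb03g037940, similar to NAC domain-containing protein 68, changed from 0 h to 6 h by -2.26 in Keller and -2.29 in BTx623 in repeat 1. In repeat 2 it changed by 0.42 in Keller and 0.43 in BTx623. Sb09g020750, the segmental partner of Sb03g041920 (NAC23), changed by -1.84 in Keller and -2.16 in BTx623 in repeat 1, and by 0.53 in Keller and 0.55 in BTx623 in repeat 2. Neither was called over both repeats (adjusted p = 0.396 and 0.415 at 6 h). The cultivars moved together within each repeat, and the repeats differed.

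Across the family 7 of 87 loci had a change at 6 h that differed by at least 2-fold between the repeats, in the same direction in both cultivars. Over all probes this share was 10.9%, and 8.05% among the NAC loci. It was lower in repeat 1 for Sb03g037940, Sb09g020750 and Sb06g034010, and lower in repeat 2 for Sb01g034410, Sb04g026440, Sb07g005610 and Sb08g004860. The repeats also lay partly on different slides, and the part of the slide in these differences was not tested.

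The remaining members of the stress list changed less. Sb03g041920 changed by -0.27 ± 0.20 at 6 h (adjusted p = 0.399). The salicylic acid-induced protein 19 locus Sb08g021080 changed by 0.39 ± 0.25 (adjusted p = 0.339), and the other such locus, Sb05g008290, was not well above background on any array.

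Members annotated as OsNAC7 also fell at 6 h. In rice the OsNAC7 group is the one that holds the relatives of the Arabidopsis vessel regulators. Sb06g034010 (chromosome 6, 61901466 to 61903327) had levels of -1.51 and -2.53 at 0 h, -2.89 and -3.03 at 2 h, and -3.60 and -3.26 at 6 h in Keller. In BTx623 it had -1.72 and -2.58 at 0 h, -2.93 and -3.40 at 2 h, and -3.92 and -3.45 at 6 h. Repeat 1 was the higher at 0 h and the lower at 6 h in both cultivars. The change at 6 h was -1.47 ± 0.30 (adjusted p = 0.0155). The call was lost without Keller 0 h replicate 1, Keller 6 h replicate 1 or BTx623 6 h replicate 1 (adjusted p of up to 0.0585). Sb07g000470, the other OsNAC7 locus, had -0.88 and -0.86 at 0 h and -1.50 and -1.65 at 6 h in Keller, and -0.89 and -1.45 at 0 h and -1.95 and -2.24 at 6 h in BTx623. Its change of -0.81 ± 0.18 passed the test (adjusted p = 0.022) but was under 2-fold.

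A further pair of called members fell at 6 h in both cultivars. Sb03g010130, weakly similar to NAC domain-containing protein 74, had levels in Keller of 0.58 and 0.78 at 0 h, -0.75 and 0.15 at 2 h, and -0.63 and -1.03 at 6 h. In BTx623 it had 0.70 and 0.78 at 0 h, -0.59 and 0.11 at 2 h, and -0.65 and -0.30 at 6 h. The change at 6 h was -1.36 ± 0.25 (adjusted p = 0.01) and the call held in all 12 fits that left out an array. Sb06g023780, whose annotation names no function, had -0.89 and -0.96 at 0 h and -2.72 and -1.86 at 6 h in Keller. In BTx623 it had -0.32 and -1.41 at 0 h and -2.12 and -2.38 at 6 h. Its change was -1.38 ± 0.29 (adjusted p = 0.017), and the call was lost without Keller 0 h replicate 1, Keller 6 h replicate 1 or BTx623 6 h replicate 2 (adjusted p of up to 0.0584).

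Sb01g006410 (chromosome 1, 5406070 to 5407909), with no informative annotation, was the member that rose at both times. The Keller arrays gave -4.88 and -4.45 at 0 h, -3.42 and -2.88 at 2 h, and -2.71 and -2.89 at 6 h. BTx623 seedlings had -5.17 and -4.32 at 0 h, -3.02 and -3.13 at 2 h, and -3.03 and -3.05 at 6 h. All 8 later arrays lay above the 4 arrays at 0 h. The change was 1.59 ± 0.25 at 2 h (adjusted p = 0.0178) and 1.79 ± 0.25 at 6 h (adjusted p = 0.00349), 3.45-fold higher. The call at 6 h held in all 12 fits that left out an array, and at 2 h in 7 of 12, with an adjusted p of up to 0.0828 without BTx623 2 h replicate 1. It was also called at 6 h within Keller (1.87 ± 0.36, adjusted p = 0.0364) and within BTx623 (1.71 ± 0.36, adjusted p = 0.042). Leaving out an array ended the call in Keller in 10 of 12 fits, with an adjusted p of up to 0.204 without Keller 0 h replicate 1, and that in BTx623 in all 12, with up to 0.19 without BTx623 6 h replicate 1. Its signal is low, and with normexp background correction its change was 0.33 at 2 h and 0.46 at 6 h and was called at neither time. Its segmental partner Sb02g002620 changed by -0.26 ± 0.22 at 6 h (adjusted p = 0.486).

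The other loci called higher at 6 h belonged to a set of nearby NAC loci that the study's list of segmental duplicates holds on chromosomes 1, 2 and 5. Sb01g036560, Sb02g043210 and Sb05g001580 are duplicates of each other, and near each of them lies a second NAC locus, Sb01g036590, Sb02g043270 and Sb05g001590, which are likewise linked as duplicates. On chromosome 2 these loci are at 76990664 to 76992930 and 77074079 to 77075650. On chromosome 5 they are at 1670915 to 1673034 and 1686333 to 1688304, and on chromosome 1 at 60188247 to 60190825 and 60218513 to 60220583. At 6 h both loci on chromosome 2 were called higher, but the call of Sb02g043210 is no support for a rise, as given below. None on chromosomes 1 and 5 was called, although Sb05g001580 changed by 1.03 and was called with the replicate block (adjusted p = 0.031).

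Sb02g043210, weakly similar to a NAM protein, had levels of -5.69 and -5.21 at 0 h, -4.91 and -4.87 at 2 h, and -3.29 and -3.85 at 6 h in Keller. In BTx623 it had -5.26 and -5.56 at 0 h, -5.65 and -5.21 at 2 h, and -5.03 and -4.72 at 6 h. Both Keller arrays at 6 h lay above all others. Sb02g043210 was well above background on 9 of 12 arrays, and at 0 h not on both arrays of either cultivar. It entered the test only through Keller at 2 h and 6 h and BTx623 at 6 h, so that its calls are no support for a rise. The change over both cultivars was 1.21 ± 0.26 (adjusted p = 0.0194), and the call was lost without Keller 0 h replicate 1, Keller 6 h replicate 1 or BTx623 6 h replicate 2 (adjusted p of up to 0.0779). In Keller it was called at 1.88 ± 0.37 (adjusted p = 0.0392), a call that was lost in each of the 12 fits that left out an array. With normexp background correction the change was 0.080 over both cultivars and 0.23 in Keller, and neither was called. The calls were also lost in the unscaled signals and with only the arrays compared. In BTx623 the change was 0.54 ± 0.37 (adjusted p = 0.485). The adjusted p of the difference between the cultivars was 1.

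Sb02g043270, similar to GRAB2, which like GRAB1 was named in wheat for binding a geminivirus protein, had 0.24 and 0.30 at 0 h, 1.24 and 0.26 at 2 h and 1.41 and 1.71 at 6 h in Keller. In BTx623 it had -0.71 and -1.30 at 0 h, 0.23 and -0.10 at 2 h, and -0.18 and 0.31 at 6 h. Within each cultivar both arrays at 6 h lay above both at 0 h, while over both cultivars the times overlapped because Keller was higher throughout. The change at 6 h was 1.18 ± 0.26 (adjusted p = 0.0191), and the call was lost without Keller 0 h replicate 1, Keller 6 h replicate 2 or BTx623 6 h replicate 2 (adjusted p of up to 0.062). Keller was above BTx623 by 1.15 ± 0.21 over the times (6 arrays against 6; adjusted p = 0.00962), with both Keller arrays above both BTx623 arrays at each time. Without Keller 2 h replicate 1 this difference was just under 2-fold. Between arrays of the same slide Keller was above BTx623 by 0.95 at 0 h, by only 0.04 at 2 h and by 1.395 at 6 h.

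Sb05g001580, the duplicate of Sb02g043210 on chromosome 5, was also higher in Keller. Keller seedlings had levels of -2.06 and -2.44 at 0 h, -1.94 and -1.39 at 2 h, and -1.58 and -0.71 at 6 h. In BTx623 it was -3.72 and -3.37 at 0 h, -4.08 and -2.73 at 2 h, and -3.25 and -1.92 at 6 h. At each time both Keller arrays lay above both BTx623 arrays. The difference was 1.49 ± 0.33 (adjusted p = 0.0264), and the call was lost in 8 of 12 fits that left out an array, with an adjusted p of up to 0.0809 without Keller 2 h replicate 2. At 6 h against 0 h it changed by 1.03 ± 0.40 (adjusted p = 0.124, or 0.031 with the replicate block). The loci on chromosome 1 and Sb05g001590 changed by -0.26 to 0.33 at 6 h and differed by 0.08 to 0.70 between the cultivars, and none of these passed.

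**Figure D3:**
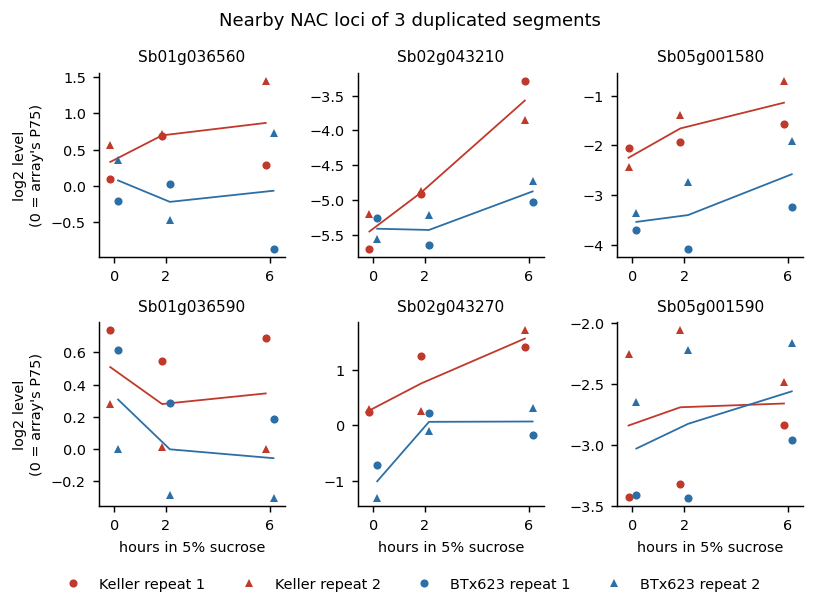
Log2 level (0 is the array's 75th percentile) of the 6 nearby NAC loci of 3 duplicated segments by hours in 5% sucrose, with the duplicates side by side in a row and the loci of a segment above each other; points are arrays and lines are means of Keller (red) and BTx623 (blue). Sb05g001580 and Sb02g043270 are higher in Keller at every time, and Sb02g043210 rises most in Keller at 6 h.

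Duplicates were set side by side. The lists of duplicates used here held 17 segmental pairs of NAC loci, made of 27 loci, and 3 tandem pairs. Of the 15 segmental pairs with both loci tested, both loci were called at 6 h in 1 pair (Sb03g040720 and Sb09g021780), 1 locus in 7 pairs, and none in 7 pairs. The 7 pairs with 1 called locus rested on 4 loci, Sb01g003710, Sb01g006410, Sb02g043210 and Sb02g043270, of which 3 are in more than 1 pair. The call of Sb02g043210 is no support for a rise. The direction at 6 h was the same in 10 of the 15 pairs, some of which share loci. With 51 of the 87 tested NAC loci below 0 at 6 h, some pairs would share a direction in any case, and this count was not tested. Of the tandem pairs, Sb02g032220 and Sb02g032230 changed by -0.55 and -0.26, and Sb03g009320 and Sb03g009330 by 0.25 and -0.47, none of which was called. In the third pair Sb03g030997 changed by -0.82 (adjusted p = 0.102), and Sb03g031000 was not tested.

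Between the cultivars, averaged over the times, 6 NAC loci were called, 4 higher and 2 lower in Keller. This was 6.9% of those tested, against 5% of all probes (1.98% higher and 3.02% lower). The median difference was 0.10, against 0.06 over all probes, and the NAC median was -0.08 in the unscaled signals, where that of all probes was -0.12. Of the 6, Sb08g022560 and Sb09g006015 were each below background in one cultivar and their differences can be given only as bounds, which were under 2-fold. Normexp background correction kept the calls of Sb10g027100 and Sb02g043270. With the replicate block 8 were called (9.2%, against 6.45% of all probes), with Sb05g004880 (adjusted p = 0.0112) and Sb02g026510 (adjusted p = 0.045) added, both higher in Keller. With the slide as a block neither was called (adjusted p = 0.184 and 0.203), and Sb02g026510 was well above background on 5 of 12 arrays. Sb02g026510 entered the test only through Keller at 0 h, the cultivar where it was high, so that its call is no support for a difference. The locus probes were designed from the annotated BTx623 genome, and the study reports sequence variants of Keller in many genes. Whether a variant under a probe lowered its signal in Keller was not tested.

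Sb10g027100 (chromosome 10, 56773059 to 56777231), annotated as similar to a putative NAC domain protein NAC1, showed the clearest difference between the cultivars. Its level in Keller was -1.80 and -1.55 at 0 h, -0.69 and -0.52 at 2 h, and -0.86 and -0.57 at 6 h. The BTx623 arrays gave -3.62 and -3.22 at 0 h, -3.41 and -3.55 at 2 h, and -2.9996 and -3.43 at 6 h. The lowest Keller array was above the highest BTx623 array. The difference was 2.38 ± 0.16 (adjusted p = 1.84e-05), 5.19-fold higher in Keller, and was called under every setting tried and without any 1 array. On the same slide Keller was higher by 1.82 at 0 h, 2.90 at 2 h and 2.86 at 6 h.

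It was the 1 NAC locus called between the cultivars at 0 h (1.15% of those tested, against 2.18% of all probes, 0.72% higher and 1.46% lower), at 1.75 ± 0.27 (adjusted p = 0.0101). That call was lost without Keller 0 h replicate 1, without Keller 0 h replicate 2 or without BTx623 0 h replicate 1 (adjusted p of up to 0.0764). In comparisons added after the data were seen, the difference was 2.88 ± 0.27 at 2 h (adjusted p = 0.000571; 1.15% of NAC loci and 2.34% of all probes were called, 0.773% higher and 1.57% lower in Keller) and 2.50 ± 0.27 at 6 h (adjusted p = 0.00127; 2.3% of NAC loci and 2.21% of all probes, 0.711% higher and 1.5% lower). In Keller Sb10g027100 changed by 0.96 ± 0.27 at 6 h, and in BTx623 by 0.21 ± 0.27, and the difference of 0.76 ± 0.38 did not pass (adjusted p = 1). The other locus with the same annotation, Sb07g005610, was at -0.11 and 2.02 at 0 h, -0.33 and -0.55 at 2 h and -0.42 and 0.35 at 6 h in Keller. BTx623 seedlings had 0.92 and 3.12 at 0 h, 0.42 and 0.03 at 2 h, and 0.23 and 0.34 at 6 h. Its difference of -0.69 ± 0.45 was not called (adjusted p = 0.489).

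**Figure D4:**
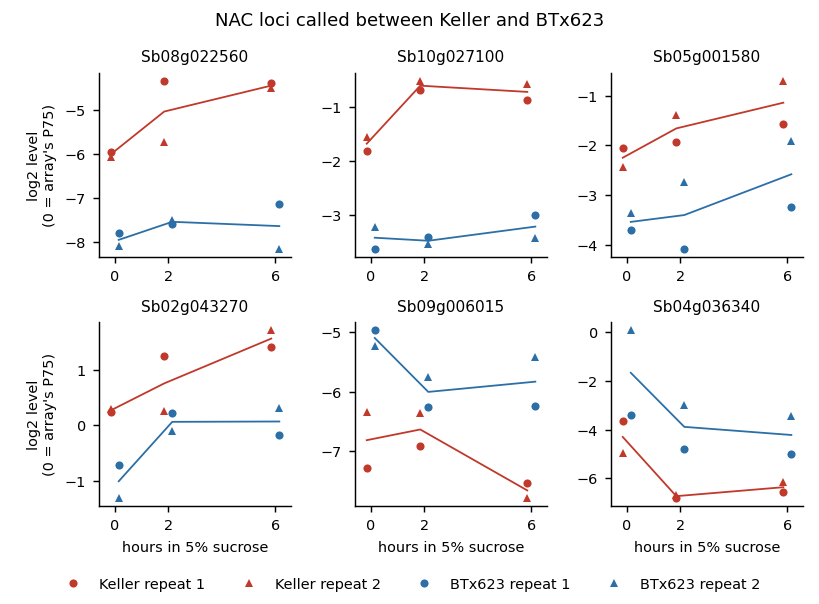
Log2 level (0 is the array's 75th percentile) of the 6 NAC loci called between Keller (red) and BTx623 (blue) over the times, by hours in 5% sucrose; points are arrays and lines are means. Sb10g027100, Sb08g022560 and Sb09g006015 show no overlap of the cultivars, where the BTx623 arrays of Sb08g022560 and the Keller arrays of Sb09g006015 are all below background, and Sb04g036340 shows a wide spread between the repeats of BTx623.

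Sb08g022560 (chromosome 8, 54583500 to 54584837), weakly similar to a No apical meristem protein, was seen in Keller only. It was well above background on 4 Keller arrays and on 0 BTx623 arrays. The Keller arrays gave -5.95 and -6.06 at 0 h, -4.35 and -5.73 at 2 h, and -4.40 and -4.50 at 6 h. In BTx623 it was -7.80 and -8.10 at 0 h, -7.58 and -7.49 at 2 h, and -7.13 and -8.14 at 6 h, which bounds the level there. It entered the test only through Keller at 6 h, where it was high, so that its call is no support for a difference. It was at least 1.5-fold higher in Keller, where the bound takes on each BTx623 array the higher of the probe's own signal and the lowest signal well above background. The adjusted p of 0.00111 belongs to the measured difference of 2.54 and not to the bound. At 6 h, in a comparison added after the data were seen, it was at least 2.90-fold higher (adjusted p = 0.0189 for the measured difference), a call that was lost without Keller 6 h replicate 1, Keller 6 h replicate 2 or BTx623 6 h replicate 2 (adjusted p of up to 0.151). With normexp background correction the difference over the times was not called.

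Sb09g006015 (chromosome 9, 8523210 to 8528203) was the reverse, with 0 Keller arrays and 2 BTx623 arrays well above background. Keller seedlings had levels of -7.28 and -6.34 at 0 h, -6.92 and -6.35 at 2 h, and -7.53 and -7.78 at 6 h. The BTx623 arrays gave -4.98 and -5.23 at 0 h, -6.25 and -5.76 at 2 h, and -6.25 and -5.42 at 6 h. It entered the test only through BTx623 at 0 h, where it was high, so that its call is no support for a difference. It was at least 1.08-fold lower in Keller (adjusted p = 0.0224 for the measured difference of -1.39), but with normexp background correction the difference was 0.12 in the other direction. The call was lost in 7 of 12 fits that left out an array, with an adjusted p of up to 0.0913 without Keller 2 h replicate 1, and also in the unscaled signals and with the slide as a block (adjusted p = 0.0619). Its segmental duplicate Sb03g003170 differed by -0.22 between the cultivars.

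Sb04g036340 (chromosome 4, 66126685 to 66127581) was called lower in Keller, with a measured difference of -2.54 ± 0.63 (adjusted p = 0.046). It was well above background on 2 Keller arrays, both at 0 h, and on 5 BTx623 arrays, so the Keller level at 2 h and 6 h is only bounded. In Keller it was at -3.66 and -4.94 at 0 h, -6.79 and -6.66 at 2 h, and -6.55 and -6.16 at 6 h. BTx623 seedlings had -3.41 and 0.08 at 0 h, -4.80 and -2.97 at 2 h, and -4.98 and -3.46 at 6 h. The cultivars overlapped over the times, and repeat 2 of BTx623 at 0 h was far above every other array. It was at least 3.28-fold lower in Keller at 2 h (adjusted p = 0.425 for the measured difference) and at least 2.64-fold lower at 6 h (adjusted p = 0.742), and neither was called. Between arrays of the same slide at 0 h the difference was -0.25. The call was lost in 10 of 12 fits that left out an array, with an adjusted p of up to 0.128 without BTx623 6 h replicate 2, and also with normexp background correction and with no filter on dim probes. At 6 h against 0 h the measured change, which rests on 1 array above background at 6 h, was -2.31 ± 0.77 (adjusted p = 0.0816, or 0.036 with the replicate block).

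Blocks for the repeats raised the number of called NAC loci at 6 h to 16, with 6 higher and 10 lower (18.4%, against 13% of all probes, where it also rose). With the slide as a block 16 were called as well (18.4%, against 13.5% of all probes). The additions with the replicate block were Sb06g028800, Sb04g023990, Sb05g001580, Sb04g036340, Sb03g000330 and Sb01g048130. The slide block did not call Sb05g001580, whose change was then 0.81 and under 2-fold, or Sb03g000330. It called Sb05g005450 (-1.05, adjusted p = 0.0222) and Sb07g005610 (-1.68, adjusted p = 0.0286) in their place. Sb03g000330 was well above background on 3 arrays and on none at 6 h, entered the test only through Keller at 0 h, where it was high, and was not called with the slide as a block (adjusted p = 0.127). Sb06g028800 had the highest change of the family at 6 h, 1.98 ± 0.86 (adjusted p = 0.163, and 0.00643 with the replicate block). Its level in Keller was -1.21 and -4.00 at 0 h, 0.21 and -2.91 at 2 h, and 0.82 and -0.97 at 6 h. In BTx623 it was -1.29 and -2.08 at 0 h, -0.09 and -1.74 at 2 h, and 0.38 and -0.87 at 6 h. It was higher at 6 h in each repeat of each cultivar, and repeat 2 was lower than repeat 1 in every group. Sb04g023990, similar to rice OsNAC1, changed by 1.05 ± 0.57 (adjusted p = 0.26, and 0.0393 with the replicate block).

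Members with names of organ boundary genes were not called. The boundary genes NAM of petunia and CUC of Arabidopsis keep neighbouring organs apart. Sb08g006330 (nam1) changed by -0.15 ± 0.32 at 6 h (adjusted p = 0.805), and Sb02g036620 (NAM-2) by -0.76 ± 0.25 (adjusted p = 0.0781). Sb07g027650 (cuc3) was well above background on 1 Keller array and was not tested.

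Genes of processes that NAC proteins are known to control were looked at by their annotations in the study's gene lists, which were used in part. At 6 h 9.12% of all probes were called, and these lists are too short for their shares to be read against it. Of 15 tested laccases, enzymes of lignin formation, 1 was called lower at 6 h and the median change was 0.004. Of 5 tested cellulose synthases, 1 was called lower, and the median was -0.73. Of 9 tested protein phosphatases 2C, which include regulators of abscisic acid signalling, 1 was called lower, and the median was -0.17. Of 10 tested loci annotated with senescence, 1 was called higher and 2 lower, and the median was -0.30. Of 3 tested late embryogenesis abundant proteins, 2 were called lower, and the other was at 1.74 and was not called. These lists were drawn up after the data were seen.

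Set beside the 19 families of the transcription factor list with 20 or more loci, NAC stood at place 9 in the share of tested loci called at 6 h, at place 4 at 2 h, and at place 2 between the cultivars. The AP2-EREBP family had the highest share at 6 h, with 7 of 133 loci called higher and 34 lower. Over the other 1199 tested transcription factor loci, 10.8% were called at 6 h, 3.67% at 2 h and 2.84% between the cultivars, against 11.5%, 6.9% and 6.9% of the NAC loci. The NAC share between the cultivars counts Sb08g022560 and Sb09g006015, which entered the test only through the group where they were high, so that their calls are no support for its place. The NAC share at 6 h likewise counts Sb02g043210, which entered the test only through groups sampled after 0 h. The families were ranked as a description, and the difference between them was not tested.

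**Figure D5:**
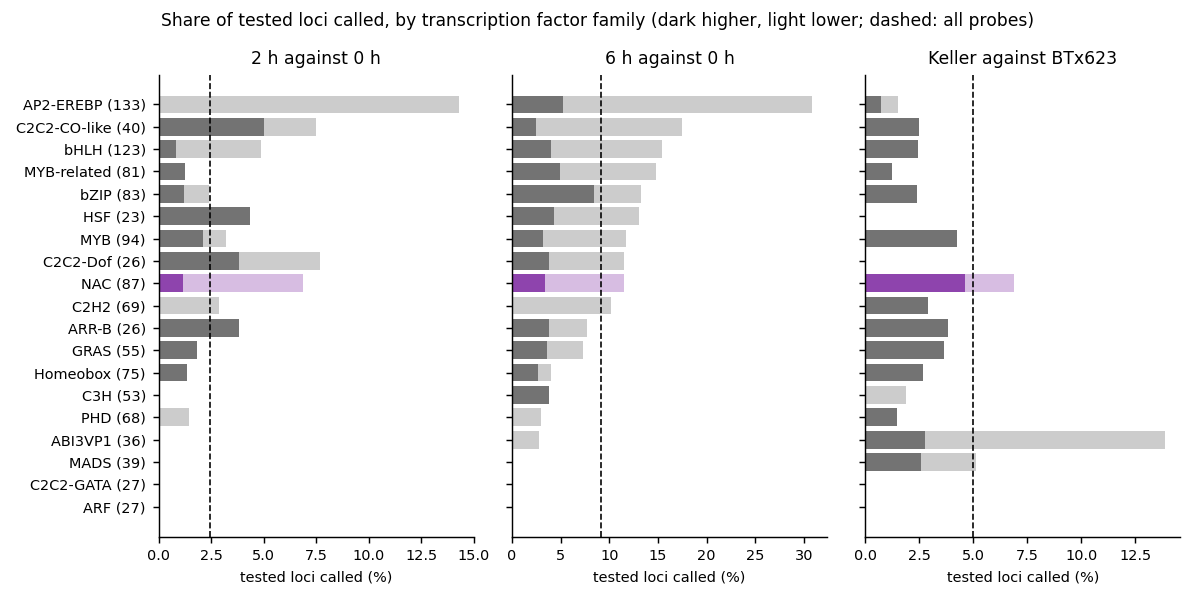
Percentage of tested loci called higher (dark) and lower (light) in each of 19 transcription factor families at 2 h against 0 h, at 6 h against 0 h and in Keller against BTx623, with the number tested in brackets, NAC in purple and the share over all probes as a dashed line. NAC is at 6.9%, 11.5% and 6.9%, against 2.44%, 9.12% and 5% of all probes. The last NAC share counts Sb08g022560 and Sb09g006015, which entered the test only through the group where they were high. The NAC share at 6 h counts Sb02g043210, which entered only through groups sampled after 0 h.

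A second probe was on the array for 2 members. For Sb03g041920 both probes changed by a similar amount at 6 h, -0.27 for the probe used and -0.24 for the second. For Sb06g017190 the probe used changed by 0.85 and the second, which was well above background on 4 of 12 arrays, by -0.02, and neither was called.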

How the data were processed

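Total RNA of 12 seedling samples was labelled with Cy3 and hybridised to custom Agilent 4x44K arrays. The authors deposited Agilent Feature Extraction 10.7.1.1 output, in which the processed signal is a linear intensity after subtraction of background and spatial detrending, with no scaling across arrays, and a table of the same intensities, rounded, which were matched by row order. Outlier spots were left out, spots of a probe were averaged as log2 intensities and each array's 75th percentile was subtracted. Of 41977 probes, 31947 were kept, those flagged well above background on every array of some group. A mean per group was fitted over all 12 arrays with limma 3.58.1 (R 4.3.3), with a trend of the variance, and p-values were adjusted over all probes kept (Benjamini-Hochberg). Calls needed an adjusted p under 0.05 and at least 2-fold. The script was tested on simulated arrays with independent noise. They held no effect of repeat or slide, so this test cannot show how such effects bear on the calls.

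Arrays with the same number deviated together from the means of their groups in all 15 pairs of groups (Pearson's r 0.278 to 0.66), so the numbers were taken to pair the samples. The replicate block is given where it changes a call. For the comparisons added after the data were seen, further calls with this block were not counted. P-values measure the spread between these arrays.

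Alternatives were normexp (offset 50) on median spot signals, since the files used hold no mean signals, quantile normalization, the unscaled table, other filters, blocks for slide or repeat, only the arrays compared, other thresholds and each array left out. The normexp input and the comparisons at 2 h and 6 h between cultivars and of 6 h with 2 h were chosen after seeing the data. The members and lists were chosen with earlier results of these data known. Named loci are those called, those of the annotation lists and those of duplicate pairs; Sb06g028800, Sb03g000330, Sb01g048130, Sb05g004880, Sb02g026510, Sb04g036340, Sb06g017190 and the loci that differed between repeats were named after their values were seen. Coordinates are those of the study's gene lists, which name no build. The reference table paired 0 of 114 loci with a name, so probe and protein sequences are not used here, and lists by product name were replaced by annotation words. Python 3.11.15, numpy 2.4.6 and pandas 2.3.3 were used.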

Additional observations from a re-analysis of the deposited data

How the results depend on the processing

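Of 35 calls of a NAC locus in a comparison, all 35 were kept with the replicate block, 33 with a block for slide, 32 after quantile normalization, 29 with no filter, 19 with normexp, 19 with only the arrays compared and 9 in the unscaled signals; 11 calls of 7 loci were kept whichever array was left out. A group reduced to 1 array was taken to have the spread of the others. At 2 h 6 loci were called, against 1 in the unscaled signals, 10 by 2-fold with no test and 2 to 6 with an array left out. At 6 h 10 were called, against 5 with normexp, 3 unscaled, 16 with a slide block, 16 with the replicate block, 18 with no test and 5 to 12 with an array left out. For Keller at 2 h 0 became 1 with normexp, 1 with a slide block, 3 with the replicate block, 10 with no test and 0 to 1 with an array left out. For Keller at 6 h 5 became 3 with normexp, 2 unscaled, 3 with no filter, 3 with detection on all arrays, 8 with a slide block, 9 with the replicate block, 0 with only the arrays compared, 18 with no test and 0 to 4 with an array left out. For BTx623 at 2 h 0 became 1 with normexp, 2 with a slide block, 4 with the replicate block, 14 with no test and 0 to 1 with an array left out. For BTx623 at 6 h 4 became 0 unscaled, 0 with only the arrays compared, 17 with no test and 0 to 3 with an array left out. Between the cultivars 6 became 2 with normexp, 3 unscaled, 3 with detection on all arrays and 2 to 6 with an array left out. At 0 h 1 became 0 with normexp, 0 unscaled, 2 with a slide block, 0 with only the arrays compared, 11 with no test and 0 to 1 with an array left out. For each difference of response, 0 became 4 with no test and stayed 0 with an array left out. The replicate block changed no call beyond those named. This leaves aside the comparisons added after the data were seen, where further calls with this block were not counted. Counts over all probes moved too, mostly the same way. At 2 h 778 became 164 unscaled and 2921 with no test. At 6 h 2912 became 1802 with normexp, 1140 unscaled, 4303 with a slide block, 4162 with the replicate block and 5022 with no test. For Keller at 6 h 703 became 458 with normexp and 5350 with no test, but 730 with detection on all arrays. For BTx623 at 6 h 950 became 141 unscaled. Between the cultivars 1598 became 657 with normexp and 1190 unscaled.

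The direction turned for 1 call, Sb09g006015 between the cultivars, at 0.12 with normexp. Among loci not called, normexp gave -0.24 for Sb02g043210 and -0.20 for Sb08g022560 at 2 h, and -0.18 for Sb03g008470, -0.082 for Sb05g001590 and -0.037 for Sb08g022560 at 6 h. Sb09g006015 was at 0.020 at 2 h after quantile normalization and Sb08g006330 at 0.070 at 6 h with a slide block. With an array left out, Sb03g008470 ranged from -0.050 to 0.62 and Sb08g006330 from -0.34 to 0.039 at 6 h. The cause was not tested. Probes near background, such as Sb08g022560 and Sb09g006015, give only bounds.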
